A study of Mus musculus with 10 samples.

Results

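HOXB4-ER cells that had been without tamoxifen (TMX) for 4 h were compared with HOXB4-ER cells kept in it, gene by gene. HOXB4-ER is the homeobox transcription factor HOXB4 fused to a hormone-binding domain that TMX holds in the nucleus, so that taking TMX away switches the factor off. The comparison is the 2 arrays of cells 4 h without TMX minus the 2 arrays of cells with 10 nM TMX for 1 h, paired by replicate number. Genes are described where a probe set had a mean log2 signal of 7 or more over all 10 arrays of the series and the same direction in both pairs. That held for 5427 of 45037 probe sets. Of these, 5001 carry 1 gene symbol and stand for 4021 genes of the 18193 on the array.

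The cells were mouse lineage-negative, Sca1-positive, c-kit-positive (LSK) cells that carried a retroviral vector with EGFP. All groups had grown for 14 days without serum in mSCF, huFL, huIL-11, mIL-3 and 10 nM TMX, and were then sorted for GFP and the LSK markers and held for 12 h more in TMX. The 5 groups of 2 arrays each were then HOXB4-ER cells kept 1 h in TMX, the same cells 1 h or 4 h after its removal, and unmodified, constitutively active HOXB4 (HOXB4const) with and without TMX for 1 h, a control for what TMX itself does. HOXB4-ER cells with TMX for 4 h were not analysed here, so time in the last culture and the loss of TMX cannot be told apart in this comparison. Every culture was a transduced population and not a clone, and the labels leave the meaning of a replicate number unsaid, so the tests measure the spread between these arrays.

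HOXB4 belongs to the HOX family, which sets cell identity along the body axis and, in blood, is active in stem and progenitor cells. Forced HOXB4 lets mouse blood stem cells renew themselves and multiply in culture. LSK cells are the bone marrow fraction that holds the stem cells and the earliest progenitors, and cytokines such as SCF and IL-3 drive their growth through RAS-ERK, PI3-kinase and JAK-STAT signalling.

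Each array gave a log2 signal for every probe set, scaled so that the trimmed mean of the linear signal was 100 on each. With 2 arrays a group precision is limited. For probe sets with a mean of 7 or more, the median 95% confidence interval of a difference reached 1.14 to either side. It comes from the limma fit of the 5 groups, which does not use the pairing. The gap between the 3′ and 5′ control probe sets of Gapdh, which grows as RNA is degraded or shortened in labelling, was 1.04 and 1.74 with TMX and 1.42 and 3.47 after 4 h (log2, replicates 1 and 2), so it was larger after 4 h in both pairs. Arrays of the same replicate number deviated together in 10 of 10 pairs of groups (r from 0.21 to 0.53). Of the sorting markers, Kit read 9.01 to 10.93 in its brighter probe set across the 6 HOXB4-ER arrays. The pan-leukocyte gene Ptprc read 10.87 to 11.85 in its brighter one. The stem and progenitor gene Cd34 read 10.78 to 11.86 on the same arrays. Ly6a was not analysed here. The endogenous Hoxb4 transcript was below the level used: its brighter probe set read 5.51 and 4.95 with TMX and 5.62 and 4.37 after 4 h. Summed signals of 8 marker lists of other blood and stromal cells differed between 4 h and TMX by −0.79 to 0.43 (log2, single pairs), with neutrophil markers at −0.05 and 0.43, and monocyte and macrophage markers at −0.11 and 0.07. Lists with 1 sign in both pairs were dendritic cell (0.24 and 0.20), lymphoid (0.29 and 0.30), mast cell (0.05 and 0.35) and stromal markers (−0.79 and −0.15).

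By the test over all probe sets, no single gene could be called. Limma with Benjamini-Hochberg adjustment passed 0 of 45037 probe sets (0.0%), with a smallest adjusted p of 0.714, and 1509 (3.35%) had an unadjusted p under 0.05. Among the 9014 probe sets with a mean of 7 or more, fitted alone, 0 passed and 145 had an unadjusted p under 0.05. All differences below are therefore sizes that 2 pairs shared, and none is a call. For every gene named below the limma adjusted p was 1.0 over all probe sets, unless another value is given.

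Direction was shared by both pairs for 60.2% of the 9014 probe sets with a mean of 7 or more, 2641 higher and 2786 lower after 4 h, against 54.3% of all 45037. The 2 pair differences had a correlation of 0.38 across these probe sets, as a description, since probe sets are not independent replicates. At a size of 0.5 or more in both pairs (at least 1.41-fold), 183 probe sets of 167 genes were higher (2.03%) and 211 of 168 genes were lower (2.34%). At 1 or more in both pairs (at least 2-fold), 5 were higher and 14 lower. The median difference was 0.74 over the 183 and −0.76 over the 211. At the edge of the rule, Zfp629 (mean level 7.0002, pair differences 0.35 and 0.88) and Rad18 (7.0005, −0.16 and −0.25) lay just inside it. Poli (6.9997, 0.48 and 0.86) and Bub3 (6.9994, 0.36 and 0.20 for that probe set) lay just outside.

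**Figure D1:**
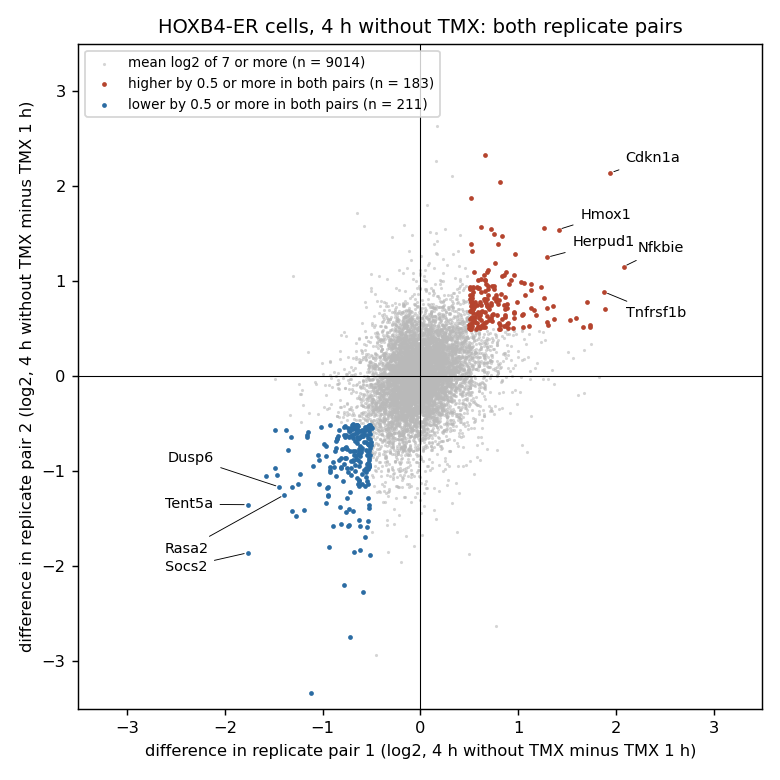
Each point is 1 probe set with a mean log2 signal of 7 or more over the 10 arrays, placed by its difference between 4 h without TMX and 1 h with TMX (log2) in replicate pair 1 (x axis) and pair 2 (y axis). Red points are the 183 probe sets higher and blue points the 211 lower by 0.5 or more in both pairs, most other points lie near 0, and Cdkn1a and Socs2 stand farthest out on the 2 sides among the named genes.

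The same rule gave smaller counts for the other comparisons with TMX. In HOXB4-ER cells 1 h without TMX, which were set against the same TMX arrays, 93 probe sets (1.03%) were higher and 132 (1.46%) lower by 0.5 or more in both pairs. HOXB4const cells, whose arrays are shared with neither, gave 19 higher (0.211%) and 66 lower (0.732%) at 1 h. Set against HOXB4-ER cells 1 h without TMX, the same 4 h arrays gave 437 higher (4.85%) and 412 lower (4.57%). Of the 183 probe sets higher after 4 h, 24 (13.1%) were also higher in both HOXB4const pairs and 45 (24.6%) were lower in both, where 10.5% and 27.6% of all 9014 were. Of the 211 lower after 4 h, 76 (36.0%) were also lower in both HOXB4const pairs and 9 (4.27%) were higher. The limma test of the 4 h difference against the HOXB4const difference passed 0 of 45037 probe sets, with 1716 at an unadjusted p under 0.05.

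The higher and lower sets differed in which probe set of a gene they came from. Of all 8219 probe sets with 1 gene symbol and a mean of 7 or more, 5886 were the brightest of their gene. Of 171 higher probe sets with 1 gene symbol, 145 (84.8%) were the brightest probe set of their gene. Of 183 lower ones, 80 (43.7%) were, and the other 103 were dimmer ones of genes that also have a brighter probe set. Counted once a gene by its brightest probe set, 145 of 5886 genes (2.46%) were higher and 80 (1.36%) lower by 0.5 or more in both pairs. With the Gapdh 3′ minus 5′ difference of each array as a term in the fit, all 183 higher probe sets kept a positive difference, 128 of them at 0.5 or more, with a median of 0.66. Of the 211 lower ones, 172 kept a negative difference, 101 of them beyond 0.5, with a median of −0.47. Among the 335 genes with a probe set at 0.5 or more in both pairs, 146 had other probe sets with a mean of 7 or more. Of those 226 others, 138 had the same direction in both pairs and 19 the opposite one.

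**Figure D2:**
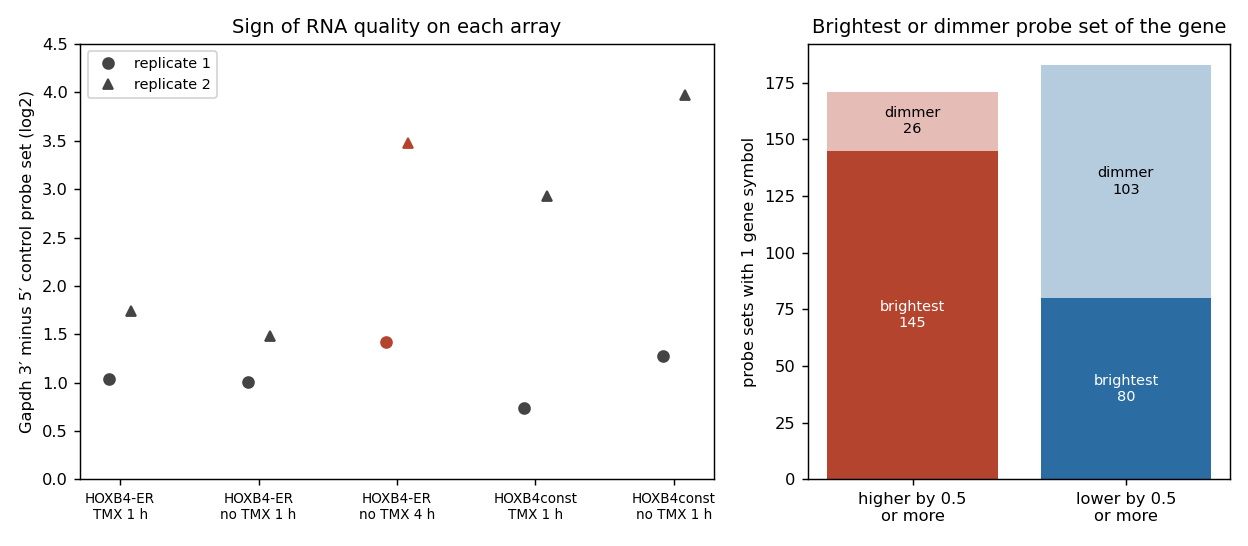
The left panel plots the gap between the 3′ and 5′ control probe sets of Gapdh (log2, 3′ minus 5′) on each array by group, with replicate 1 as circles and replicate 2 as triangles; the 4 h array of replicate 2, at 3.47, lies above its TMX partner at 1.74. The right panel counts the probe sets with 1 gene symbol that were higher (145 brightest of their gene, 26 dimmer) or lower (80 brightest, 103 dimmer) by 0.5 or more in both pairs.

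Promoters of 3 higher genes are shown because each carries letters of an element that its known regulators read. Herpud1, induced by stress of the endoplasmic reticulum (ER), holds the amino acid response element searched as TGATGCAA, read by ATF4 with C/EBP partners. Tnip1 and Tnfaip3, both brakes on NF-kB signalling, hold the NF-kB element searched as GGANTTNCC. Capitals mark every match, on either strand, to these elements and to the hypoxia element ACGTG, the STAT element TTCNNNGAA, the ETS element CCGGAAG, the heat shock element GAANNTTC and the HOX core TAATTA. Each window is the 250 bases before the RefSeq start of the gene (build GRCm38.p6), read 5′ to 3′ along the gene.
Herpud1: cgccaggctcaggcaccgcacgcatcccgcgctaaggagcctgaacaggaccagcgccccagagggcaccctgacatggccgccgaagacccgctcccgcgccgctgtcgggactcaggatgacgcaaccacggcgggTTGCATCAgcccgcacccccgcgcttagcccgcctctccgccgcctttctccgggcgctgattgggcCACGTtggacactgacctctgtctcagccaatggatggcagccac
Tnip1: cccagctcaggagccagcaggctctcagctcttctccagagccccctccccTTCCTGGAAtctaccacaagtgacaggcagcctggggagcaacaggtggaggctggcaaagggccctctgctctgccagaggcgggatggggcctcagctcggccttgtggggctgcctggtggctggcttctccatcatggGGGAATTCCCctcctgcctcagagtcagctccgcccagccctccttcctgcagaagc
Tnfaip3: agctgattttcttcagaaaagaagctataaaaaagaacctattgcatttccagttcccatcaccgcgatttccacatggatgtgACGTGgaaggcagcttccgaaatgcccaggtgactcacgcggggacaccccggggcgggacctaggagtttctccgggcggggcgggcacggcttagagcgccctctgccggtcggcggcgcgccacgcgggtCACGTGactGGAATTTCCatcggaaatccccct

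The Herpud1 window is chr8:94386179-94386428 on the plus strand, with the amino acid element starting 112 bases before the start and the hypoxia element at 45. For Tnip1 it is chr11:54962941-54963190 on the minus strand, where the NF-kB match begins 56 bases before the start and, read on the other strand, 57. The Tnfaip3 window, chr10:19015411-19015660 on the minus strand, is 1 of 2 listed for that gene and has the NF-kB match at 24 bases. Of 27025 genes with a promoter in the table, 0.818% hold the amino acid element, 3.09% the NF-kB element and 16.6% the hypoxia element. In the genes higher and lower by 0.5 or more, the NF-kB element was in 5.67% and 5.04% (3.34% of genes with a mean of 7 or more), and the hypoxia element in 20.6% and 27.3% (24.4%). The amino acid element was in 1 promoter of each set (0.709% and 0.719%), against 0.451% of genes with a mean of 7 or more. The ER stress element, CCAAT and CCACG 9 bases apart, was in 0 of 141 and 0 of 139. It was rare in that background too, at 0.205%. Over the list for TNF and NF-kB, 9 of 23 genes with a promoter hold the NF-kB element, among them 4 of the 8 members higher by 0.5 or more in both pairs (Icam1, Tnfaip2, Tnfaip3 and Tnip1). The HOX core was in 2 of 141 promoters of the genes higher by 0.5 or more (1.42%), in 2 of 139 of the lower ones (1.44%), and in 2.11% of promoters of genes with a mean of 7 or more. ETS elements were in 16.3% and 15.1% of the higher and lower sets and in 17.5% of that background. Matches are descriptions of letters, and some elements were chosen after the genes' values were known.

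Socs2 stood at the head of the lower side. It is a STAT5 target whose product dampens cytokine receptors, and it read 8.39 and 6.65 with TMX and 6.62 and 4.79 after 4 h (log2, replicates 1 and 2). Each 4 h array lay below both TMX arrays, by a narrow margin across the replicates. The difference was −1.81 ± 0.87 (limma standard error), 0.28 of the level with TMX. All ± values come from the fit without a replicate block, so they include the offset between replicates and are not errors of the paired difference. Socs2 gave −0.65 after 1 h without TMX and −0.01 in HOXB4const cells. The other bright members of the JAK-STAT list included the receptor and signalling genes Csf2rb, Stat5a and Jak2, at 0.42 to 0.45, and the adaptor gene Sh2b3, another inhibitor, at −0.37. In all, 8 of its 13 genes were higher (61.5%) and 4 lower (30.8%) in both pairs, with a median of 0.21. Of all 5886 genes with a mean of 7 or more, 33.6% were higher and 27.0% lower in both pairs, with a median of 0.03. These shares are the background for the list counts below.

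Of the ERK feedback and ETS factor list, 16 of 30 genes had a mean of 7 or more. Lower in both pairs were 8 (50.0%) and higher 4 (25.0%), where 27.0% and 33.6% of all 5886 genes were. By 0.5 or more 5 were lower, where 1.36% of all 5886 genes were. Dusp6, the phosphatase that ERK induces and that switches ERK off, read 9.18 and 8.94 with TMX and 7.74 and 7.77 after 4 h. Rasa2, which encodes a GTPase-activating protein for RAS, read 9.20 and 9.32 with TMX and 7.80 and 8.07 after 4 h. In both genes the 4 h arrays lay well below the TMX arrays and the replicates were close together. The differences were −1.30 ± 0.76 for Dusp6 and −1.32 ± 0.44 for Rasa2, whose other bright probe set gave −1.30. After 1 h without TMX Dusp6 stood at 0.20 and Rasa2 at −0.47. The HOXB4const differences were −0.26 and −0.10, but Dusp6 in HOXB4const cells read 9.32 and 7.75 with TMX, so that its replicates there lay farther apart than the 4 h difference.

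Spred1 and Spred2, inhibitors of RAF activation, and Etv5, an ETS transcription factor made in response to ERK, were lower by 0.92 to 0.95. Spred2 read 8.34 and 8.61 with TMX and 7.45 and 7.65 after 4 h. Spred1 read 8.65 and 8.20 with TMX, 7.26 and 7.59 already after 1 h without it, and 7.60 and 7.37 after 4 h. That probe set of Spred1 was at its 4 h level by 1 h, but 2 of the gene's 5 bright probe sets stood at −0.03 and 0.25 at 1 h, while all 5 were lower in both pairs after 4 h (−0.70 to −0.96). Spred2 and Etv5 stood at 0.04 and −0.13 at 1 h. The one list member higher by 0.5 or more was Sos1, the exchange factor that loads RAS with GTP. It read 6.67 and 7.44 with TMX and 8.03 and 8.18 after 4 h, a difference of 1.05 ± 0.65. The list median was −0.17, against 0.03 for all genes of that brightness.

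**Figure D3:**
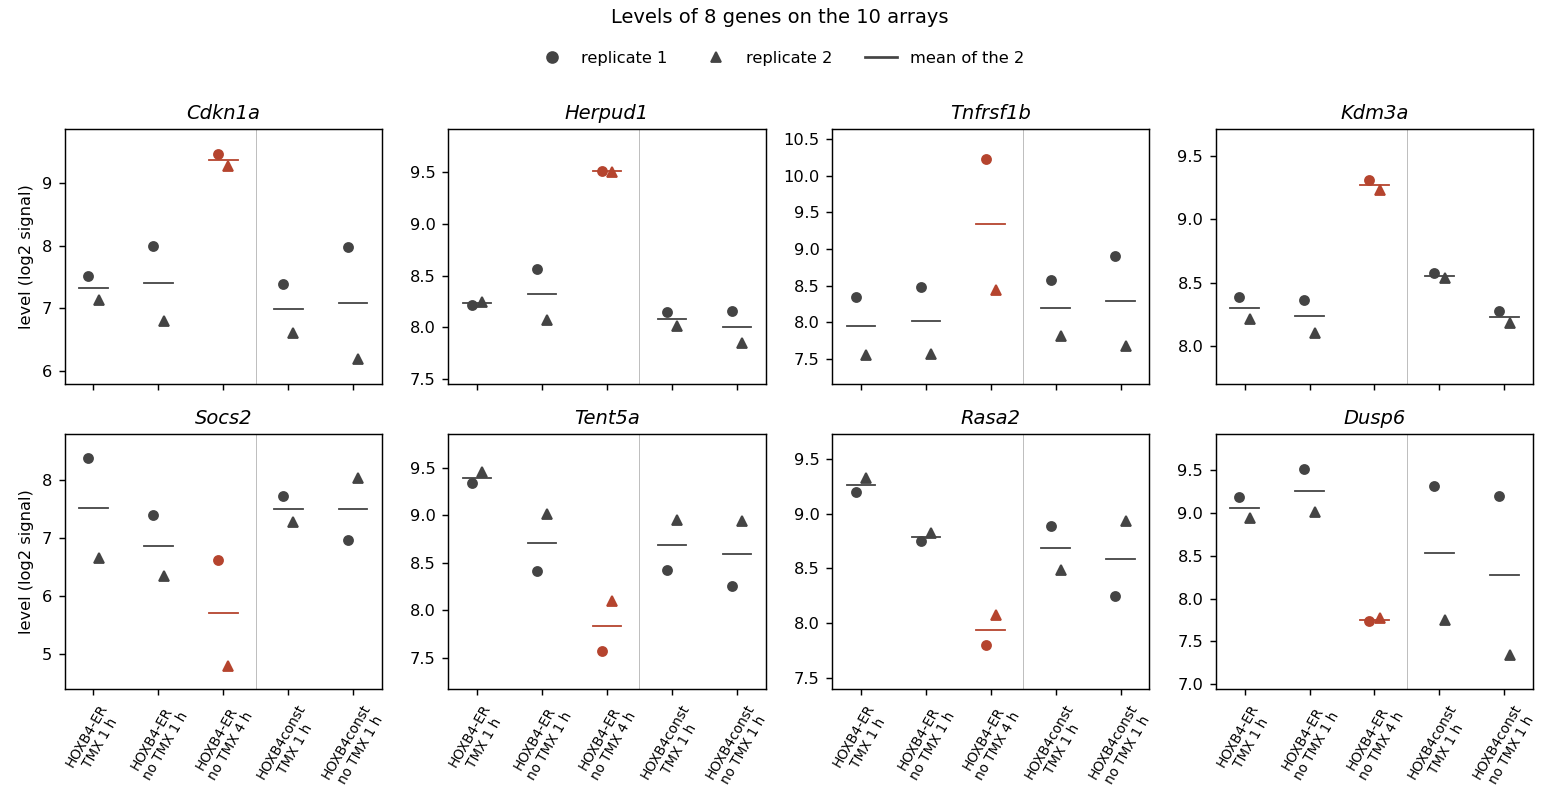
Levels (log2 signal) of 8 genes on the 10 arrays, by group, with replicate 1 as circles, replicate 2 as triangles and their mean as a bar; the 4 h group is in red and the y axes differ and do not start at 0. For each gene the 2 red points lie outside the TMX points of HOXB4-ER cells, above them in the top row (Cdkn1a, Herpud1, Tnfrsf1b, Kdm3a) and below them in the bottom row (Socs2, Tent5a, Rasa2, Dusp6).

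Cdkn1a stood at the head of the higher side. It encodes the CDK inhibitor p21, is a target of p53, and read 7.51 and 7.13 with TMX and 9.45 and 9.28 after 4 h. Both 4 h arrays lay above all 8 other arrays. The difference of 2.04 ± 0.72 (4.12-fold, 95% interval 0.35 to 3.74 on the log2 scale) was the highest of the named genes. After 1 h the difference was 0.08, and HOXB4const cells gave 0.09, each with pairs of opposite sign.

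Of the 20 bright G1 regulators, 11 were lower and 6 higher in both pairs, with a median of −0.19. Ccng2, a cyclin gene induced by FOXO factors in resting cells, read 8.08 and 7.44 with TMX and 8.89 and 9.49 after 4 h (1.43 ± 0.61). The pocket protein gene Rbl2, which holds E2F targets silent in resting cells, read 8.19 and 8.10 against 8.63 and 9.01 after 4 h (0.68 ± 0.41). E2f1 and E2f3 encode factors that switch on S-phase genes. E2f1 read 7.51 and 7.64 with TMX and 6.64 and 6.86 after 4 h, and E2f3 read 8.17 and 8.28 against 7.39 and 7.64. In these 4 genes the groups did not overlap, as in 12.5% of all 9014 probe sets on the higher side and 14.5% on the lower. Ccnd2, the D-type cyclin that growth factors induce in blood cells, gave −1.11 ± 0.86 in the probe set chosen by the rule, −0.40 in its brightest one, and −0.86 and −0.84 in the other 2. Cdk4 was lower by 0.42, at 10.14 and 9.69 with TMX and 9.64 and 9.33 after 4 h. The Ccnd2 probe set of −1.11 stood at −0.39 with the Gapdh difference as a term in the fit.

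Of 35 S-phase genes, 13 were lower (37.1%) and 5 higher (14.3%) in both pairs (median −0.08), where 27.0% and 33.6% of all genes were, and Tk1, a thymidine kinase gene at −0.62, was the 1 at 0.5 or more by its brightest probe set. Dimmer probe sets of the replication genes Mcm3 (−0.80), Rpa2 (−0.74), Rrm2 (−0.74) and Rrm1 (−0.69) were also lower by 0.5 or more in both pairs. Mitotic genes had 18 of 35 higher (51.4%) and 4 lower (11.4%) (median 0.09), and the actin-binding cytokinesis gene Anln, at 0.81, was the 1 at 0.5 or more.

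Of the 11 bright p53 targets, 9 were higher in both pairs (81.8%, median 0.31), where 33.6% of all genes were. By their brightest probe sets, 2 of the 11 were higher by 0.5 or more in both pairs, Cdkn1a and Ccng1. Of all 5886 genes, 2.46% were. Sesn1, a stress-response inhibitor of growth signalling, read 8.60 and 7.99 with TMX and 9.06 and 8.77 after 4 h. Its pair differences were 0.45 and 0.78. Mdm2, which encodes the ligase that removes p53, gave 0.31 ± 0.49 and the BH3-only gene Pmaip1 0.50 ± 0.54. Aen, a nuclease gene, was the 1 member lower in both pairs, at −0.27. In the BCL2 family and caspase list, Bcl2l11 stood apart. It encodes BIM, a death-promoting protein that ERK and cytokine signals hold down and FOXO3 induces. Bcl2l11 read 7.74 and 6.76 with TMX and 8.70 and 8.04 after 4 h, so that both 4 h arrays were above both TMX arrays (1.13 ± 0.60). It was lower in both pairs after 1 h (−0.29) and in HOXB4const cells (−0.16).

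Among genes of the FOXO and PI3K response, 8 of 15 were higher (53.3%) and 5 lower (33.3%) in both pairs, with a median of 0.25. Foxo3 itself read 7.60 and 7.85 with TMX and 8.11 and 8.67 after 4 h (0.66 ± 0.44), and its brightest probe set gave 0.17 and 1.43 in the 2 pairs. Pik3ip1, an inhibitor of PI3-kinase, read 7.55 and 6.74 with TMX and 8.01 and 7.88 after 4 h (0.80 ± 0.47). The kinase gene Akt1 lay lower by 0.35, from 9.07 and 8.85 to 8.77 and 8.45. Both Foxo3 and Pik3ip1 had 4 h arrays above both TMX arrays.

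Stress response lists differed in how many of their genes were higher. Herpud1, whose product helps clear misfolded protein from the ER and whose promoter is shown above, had the tightest replicates of the leading genes. It read 8.22 and 8.25 with TMX and 9.51 and 9.50 after 4 h, and no other array of the series passed 8.56. The difference was 1.27 ± 0.41 (2.42-fold), against 0.09 after 1 h and −0.08 in HOXB4const cells. Chaperones of the same list moved less. In the list, 12 of 24 genes were higher (50.0%) and 3 lower (12.5%) in both pairs (median 0.12). The sensor gene Ern1 was at 0.47 and 0.69 in the 2 pairs, and the main ER chaperone gene Hspa5 at 0.32 and 0.17.

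Cebpg and Cebpb encode C/EBP factors, of which the first pairs with ATF4 in the amino acid response. Cebpg read 6.85 and 7.21 with TMX and 7.80 and 8.28 after 4 h (1.01 ± 0.50). Cebpb read 8.21 and 7.26 against 9.39 and 7.91, so that its groups overlapped (0.91 ± 0.68). Of the 17 bright genes of the amino acid and integrated stress response list, 9 were higher (52.9%) and 3 lower (17.6%) in both pairs. The median was 0.17, with Atf4 itself at 0.14 and 0.01. Transfer RNA synthetases, which ATF4 also drives, had 10 of 18 higher (55.6%) and 3 lower (16.7%). The median was 0.11, and none was at 0.5 or more in both pairs.

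Hmox1, the haem-degrading enzyme gene of the oxidative stress response, read 7.93 and 5.46 with TMX and 9.34 and 7.01 after 4 h. Replicate 1 was higher in both groups, so the groups overlapped although both pairs gave about the same difference (1.48 ± 1.43). Nfe2l2, which encodes the regulator NRF2, read 8.94 and 8.74 with TMX and 9.83 and 9.50 after 4 h without overlap (0.82 ± 0.43). Of the 21 bright genes of that list, 7 were higher and 5 lower in both pairs (33.3% and 23.8%), near the shares of all genes. Heat shock proteins had 2 of 18 genes higher and 3 lower in both pairs (median −0.02), with the co-chaperone gene Dnajb4 at 0.78 and the chaperone genes Hsp90aa1 and Hspa8 at −0.64 and −0.47 in probe sets other than their brightest, which gave −0.07 and −0.06.

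In the glycolysis and HIF target list, 14 of 25 genes were higher (56.0%) and 2 lower (8.0%) in both pairs. The medians were 0.54 in pair 1 and 0.18 in pair 2. Kdm3a, a histone demethylase gene that HIF1 induces, read 8.39 and 8.21 with TMX and 9.31 and 9.23 after 4 h, above all 8 other arrays (0.97 ± 0.39). Ndrg1, another hypoxia-induced gene, read 7.36 and 7.02 with TMX and 8.23 and 7.73 after 4 h, yet stood at 8.42 to 8.91 on every HOXB4const array. The pairs disagreed in size for the glucose transporter gene Slc2a1 (1.75 and 0.34) and the oxidoreductase gene Ero1a (1.21 and 0.47).

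Targets of TNF and NF-kB signalling had the highest median of the pathway lists, 0.73 over 15 bright genes, of which 9 were higher and 1 lower in both pairs. Of these, 8 were higher by 0.5 or more. Tnfrsf1b, a TNF receptor gene, read 8.35 and 7.56 with TMX and 10.23 and 8.45 after 4 h, with both 4 h arrays above both TMX arrays (1.38 ± 0.78). Nfkbie, which encodes an NF-kB inhibitor that NF-kB induces, read 7.76 and 6.50 with TMX and 9.84 and 7.65 after 4 h (1.62 ± 0.92). Tnip1 read 8.30 and 7.46 against 10.19 and 8.17 (1.30 ± 0.71). In these genes the replicate 1 array of 4 h was far above all others, and the replicate 2 array of 4 h overlapped the TMX arrays for Nfkbie and Tnip1.

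Birc2 and Birc3, which encode inhibitor of apoptosis proteins that relay TNF signals, gave 0.82 ± 0.51 and 0.73 ± 0.68. The adhesion molecule gene Icam1 gave 1.74 in pair 1 and 0.54 in pair 2, and Tnfaip2 1.74 and 0.52. Tnfaip3, the ubiquitin-editing brake A20, read 8.43 and 6.65 with TMX and 9.15 and 7.42 after 4 h (0.74 ± 1.02). Without the 4 h replicate 1 array its difference was −0.12, and without the TMX replicate 2 array −0.15. That fit does not pair the arrays, so these 2 values also include the offset between replicates. The NF-kB subunit gene Rela was the 1 member lower in both pairs, at −0.16. Monocyte and macrophage markers, cells that express many of these genes, had summed signals of 19319 and 2172 with TMX and 17942 and 2277 after 4 h (linear, replicates 1 and 2, 18 genes), so replicate 1 held far more of that signal in both groups. Dendritic cell markers summed to 4870 and 309 with TMX and 5757 and 354 after 4 h (11 genes), and lymphoid markers to 798 and 475 against 978 and 585 (17 genes), higher in both pairs as the NF-kB genes were. Their part in these differences was not tested. Fewer cells of a type and less RNA per cell cannot be told apart in such bulk samples.

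Ribosome biogenesis leaned lower, by small amounts: 19 of 31 genes (61.3%) were lower and 5 higher (16.1%) in both pairs, with a median of −0.20. Examples by their brightest probe sets are Nop16 (−0.16 and −1.27 in the 2 pairs), Ppan (−0.39 and −0.95) and Dkc1 (−0.33 and −0.56), all factors that process ribosomal RNA. Polr1c, a subunit gene of RNA polymerases I and III, was at 0.56 in its brightest probe set and at −0.04 in the other. Cytosolic ribosomal proteins had medians of −0.17 in pair 1 and 0.54 in pair 2, so the pairs disagreed and only 5 of 34 genes had a shared direction. Of 35 proteasome genes, 15 were lower (42.9%) and 6 higher (17.1%) in both pairs, with a median of −0.03 and 1 gene, Psmd7, at 0.5 or more. Of 46 oxidative phosphorylation genes, 13 were higher and 11 lower (median 0.05), with 0 at 0.5 or more.

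**Figure D4:**
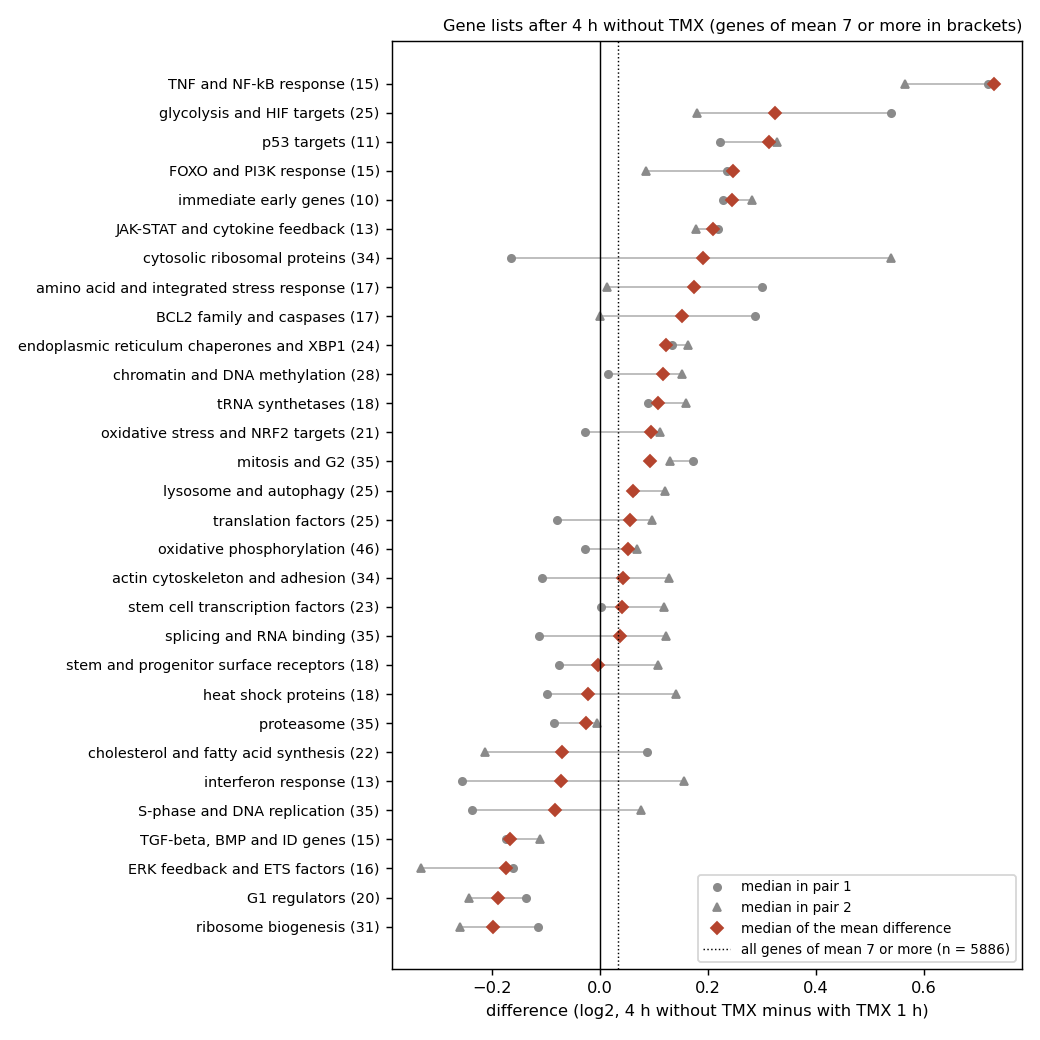
Median difference (log2, 4 h without TMX minus 1 h with TMX) of each pathway list with at least 10 genes of mean 7 or more, as a diamond, with the medians in pair 1 (circle) and pair 2 (triangle) and the number of such genes in brackets. TNF and NF-kB response genes lie highest at 0.73, ribosome biogenesis genes lowest at −0.20, and the dotted line is the median of all 5886 genes, 0.03.

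Leading genes with other roles also stood out. Tent5a, which encodes a cytoplasmic poly(A) polymerase, read 9.34 and 9.45 with TMX, 8.41 and 9.01 after 1 h without it and 7.57 and 8.10 after 4 h. It thus stood between the other levels at 1 h, and its 4 h arrays lay below all 8 other arrays (−1.56 ± 0.49, 0.34 of the TMX level). In HOXB4const cells the difference was −0.09. Bambi, a decoy receptor that blocks TGF-beta and BMP signals, read 7.86 and 7.37 with TMX and 6.37 and 6.40 after 4 h (−1.23 ± 0.41). Tle1, a corepressor gene, read 8.30 and 8.16 against 7.08 and 7.13 (−1.13 ± 0.40). For both, all 8 other arrays lay above the 4 h arrays.

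Transporters appeared on both sides. Slc19a2, the thiamine transporter gene, read 6.34 and 7.22 with TMX and 7.57 and 8.15 after 4 h (1.08 ± 0.57). Its paralog Slc19a1, the folate carrier gene, read 7.49 and 8.02 with TMX and 6.46 and 6.89 after 4 h (−1.09 ± 0.56), while its brighter probe set gave −0.23. Slc16a6, a monocarboxylate transporter family gene, read 8.39 and 7.85 against 7.12 and 6.38 (−1.37 ± 0.68, and −0.84 with the Gapdh term). In each of the 3 the 4 h arrays lay outside the range of the TMX arrays.

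Further higher genes were Kmt2e, a trithorax-related chromatin gene that limits cell cycle entry, at 9.18 and 9.53 with TMX and 10.31 and 10.50 after 4 h (1.05 ± 0.47), and Akna, at 8.0 and 7.92 against 9.06 and 8.90 (1.02 ± 0.41). Their other bright probe sets gave 0.53 and 0.50. Snapc1, a subunit gene of the complex that starts small nuclear RNA transcription, gave 1.01 ± 0.51, and Cpt2, a gene of mitochondrial fatty acid import, 0.94 ± 0.46, both without overlap. The immune receptor gene Cd300lb read 7.71 and 5.50 with TMX and 8.97 and 7.06 after 4 h, with overlap (1.42 ± 1.18). On the lower side, Tnfrsf21, a death receptor gene, read 8.02 and 7.61 with TMX and 6.76 and 6.47 after 4 h (−1.20 ± 0.78), although HOXB4const replicate 2 arrays stood at 6.72 and 6.33. D16Ertd472e gave −1.24 ± 0.80 (−0.65 with the Gapdh term), with its other 3 probe sets all lower too, and the mitochondrial ribosomal gene Mrpl15 −1.31 ± 0.48, with its other 4 between −0.24 and 0.11.

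**Figure D5:**
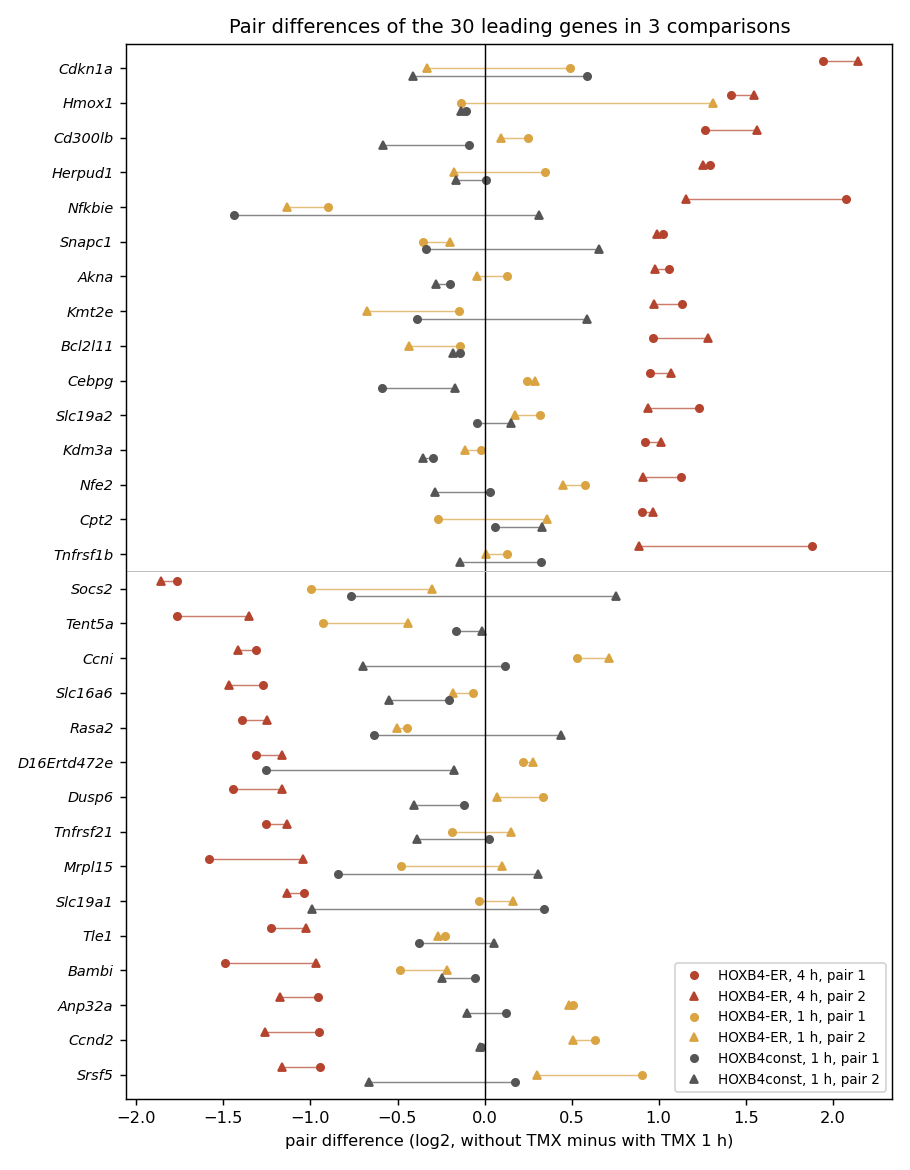
Pair differences (log2, without TMX minus with TMX) of the 15 higher and 15 lower genes with the largest values of the smaller pair difference at 4 h, in HOXB4-ER cells at 4 h (red) and 1 h (yellow) and in HOXB4const cells at 1 h (grey), with pair 1 as circles and pair 2 as triangles joined by a line. The red points lie beyond 0.89 on the higher and −0.94 on the lower side by the choice of the genes, and the yellow and grey points lie mostly nearer to 0; the yellow and red differences share the TMX arrays.

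Over these 15 higher and 15 lower genes, an unadjusted limma p under 0.05 was reached by 4 and 5. Of all 45037 probe sets, 3.35% reached it. With the replicate number as a block it was reached by 14 and 8, and by 1775 of the 45037, and the adjusted p was still 1.0. Both 4 h arrays lay above both TMX arrays for 12 of the 15, and below them for 13 of the 15. Of all 9014 probe sets with a mean of 7 or more, 12.5% lay above and 14.5% below in this way. The genes had been chosen for this contrast, so these counts only describe them.

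For some lower genes the difference shrank or changed sign with the Gapdh difference as a term in the fit. The Gapdh gap was itself larger after 4 h in both pairs, so the term is not independent of this comparison. Whether shortened RNA lay behind any of these differences was not tested. Srsf5, a splicing factor gene, read 9.81 and 8.59 with TMX and 8.87 and 7.43 after 4 h (−1.05 ± 1.34), and its difference was 0.12 with the Gapdh term in the fit. Ccni, a cyclin gene of unclear role, went from −1.36 ± 1.66 to 0.14. Its 2 other probe sets with a mean of 7 or more gave −1.01 and −0.61 without the term, lower in both pairs. The translation factor gene Eif4a1 gave −1.15 in a dimmer probe set, −0.00 in its brightest, and 0.15 for the dimmer one with the term. A dimmer probe set of Cfl1, an actin-severing protein gene, gave −0.72 and its brightest 0.23. With the same term Socs2 stood at −1.59, Tent5a at −1.83, Rasa2 at −1.42, Tle1 at −1.08 and Bambi at −1.24. Smaller with the term than without it were Slc16a6 (−0.84), Dusp6 (−0.76), D16Ertd472e (−0.65), Tnfrsf21 (−0.59), Anp32a (−0.55, against −1.06 without it) and Ccnd2 (−0.39). On the higher side Cdkn1a stood at 2.52, Herpud1 at 1.36, Kdm3a at 1.02 and Bcl2l11 at 1.36, each larger than without the term. Smaller with it were Cebpg (0.71, against 1.01 without it), Slc19a2 (0.74), Snapc1 (0.74), Cpt2 (0.76), Kmt2e (0.86) and Akna (0.96). The rest of the 15 leading higher genes were larger with it.

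Regulators of stem and progenitor cells did not share a direction. Of 23 bright stem cell transcription factors, 10 were higher (43.5%) and 6 lower (26.1%) in both pairs, with a median of 0.04. Lyl1, a basic helix-loop-helix factor of blood stem cells, read 9.40 and 9.74 with TMX and 10.10 and 10.66 after 4 h (0.81 ± 0.46), and Ikzf2 read 7.74 and 8.01 against 9.05 and 8.55 (0.92 ± 0.45), both without overlap. Tal1, Runx1 and Gata2, factors of the same stem cell network, were higher by 0.31 to 0.79 in every pair. Sox4, a factor of progenitor growth, read 10.94 and 10.26 with TMX and 10.30 and 9.45 after 4 h (−0.73 ± 0.62) with overlapping groups, and Hoxa9, a HOX gene of the same cells, was at −0.52 and −0.29 in the 2 pairs.

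Kit, the receptor for SCF, read 9.38 and 10.25 with TMX and 10.02 and 10.93 after 4 h, higher by 0.64 and 0.69 in the 2 pairs with the groups overlapping (0.66 ± 0.69). A dimmer Kit probe set, below the level used (mean 6.18), gave 0.20 and −1.09 in the 2 pairs. Of 18 bright surface receptor genes, Kit included, 4 were higher (22.2%) and 5 lower (27.8%) in both pairs. Nfe2, a factor of the erythroid and megakaryocyte lineages, read 8.61 and 9.17 with TMX, 9.19 and 9.62 after 1 h and 9.74 and 10.08 after 4 h (1.02 ± 0.45). Erythroid markers as a summed signal were 3878 and 5245 with TMX and 4505 and 4905 after 4 h (linear, 20 genes), 0.22 higher in pair 1 and 0.10 lower in pair 2 on the log2 scale, and megakaryocyte markers differed by −0.08 and 0.21. Neat1 and Malat1, long noncoding RNAs kept in the nucleus, were higher by 1.20 ± 0.88 and 0.59 ± 0.48, without overlap, with Neat1 at 10.03 and 8.32 with TMX and 10.54 and 10.20 after 4 h.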

How the data were processed

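RNA of 10 arrays (an Affymetrix whole-genome mouse design, 5 groups of 2) was measured. The authors deposited log2 signals per probe set, whose linear trimmed mean (2% trims) is 100 on every array. GCOS and RMA appear in the submitters' processing notes, with no role or version. Of 45101 probe sets, 64 controls were left out. A symbol was given to 34945 probe sets, several to 932, and 9160 were unnamed. Columns of samples outside the series numbered 0.

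The deposited values were fitted without further scaling in limma 3.58.1 (R 4.3.3), as 5 groups with no block, with Benjamini-Hochberg adjustment over 45037 probe sets. Pair differences, counts and figures were made in Python 3.11.15 with pandas 2.3.3. The code of the fit was run on simulated data that held no offset between replicates, unlike these arrays. That run checks the code only. Arrays of one replicate number deviated together in all 10 pairs of groups (r 0.21 to 0.53). Arrays were paired by that number, and the labels do not say whether they are matched. The Gapdh gap was larger on the replicate 2 array in every group, and its part in these r values was not tested. The fit with the replicate block is an alternative.

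Named genes are the 15 higher and 15 lower with the largest value of the smaller pair difference (1 probe set a gene), and up to 5 genes in each direction of each list by the same measure. Other members named were chosen after their values were seen. Of 1154 entries in 41 lists, 1058 matched a probe set; lists use each gene's brightest probe set. Members and lists were chosen with earlier results of these data known. Promoters are RefSeq's, build GRCm38.p6. Alternatives changed the level minimum, pairing, overlap, scaling, block and replicates.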

Additional observations from a re-analysis of the deposited data

Results flagged for a closer look

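For 40 of 296 probe sets that the naming rule picked, both HOXB4-ER pairs at 4 h lay on one side of 0 and both HOXB4const pairs at 1 h on the other. The times differ, and the limma test of each difference of differences gave an adjusted p of 1.0 for each. Of the 9014 bright probe sets, 10.46% were higher and 27.55% lower in both HOXB4const pairs. Lower was thus the more common direction there, so higher genes at 4 h met this rule more readily than lower ones. The count of 40 was not tested against these shares and does not by itself show opposite responses. Of the 40, 11 differed by 0.5 or more in both HOXB4-ER pairs. Hmox1 was at 1.48 against −0.12 in HOXB4const cells (difference 1.60 ± 2.02, limma standard error). Cd300lb was at 1.42 against −0.34 (1.75 ± 1.67) and Akna at 1.02 against −0.24 (1.26 ± 0.58). Bcl2l11 was at 1.13 against −0.16 (1.29 ± 0.85), and Cebpg at 1.01 against −0.38 (1.39 ± 0.71). Kdm3a was at 0.97 against −0.33 (1.30 ± 0.56), and the heat shock co-chaperone gene Dnajb4 at 0.78 against −0.27 (1.05 ± 0.64). Tnip1 was at 1.30 against −0.03 (1.33 ± 1.01), Lyl1 at 0.81 against −0.23 (1.03 ± 0.66) and Neat1 at 1.20 against −0.11 (1.30 ± 1.24). The 1 lower gene was Gtpbp4, of ribosome assembly, at −1.18 against 0.32 (−1.50 ± 1.34), and its brightest probe set gave −0.21.

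The other 29 had a smaller pair difference under 0.5. In growth and signalling genes, Rbl2 was at 0.68 against −0.28 in HOXB4const cells, Pik3ip1 at 0.80 against −0.33, Stat5a at 0.43 against −0.13, Stat5b at 0.29 against −0.37 and the phosphatase gene Ptpn6 at 0.44 against −0.20. Sh2b3 was at −0.37 against 0.05, Rela at −0.16 against 0.08, Aen at −0.27 against 0.26, Jund at −0.11 against 0.55 and Ddx58 at −0.16 against 0.50. In metabolism and stress, Slc2a3 was at 0.54 against −0.08, Hmgcs1 at 0.56 against −0.17, Gpx4 at 0.45 against −0.74, Ndufv2 at 0.22 against −0.30 and Ndufb3 at 0.23 against −0.03. Hspa8 was at −0.47 against 0.43, Vldlr at −0.91 against 0.20, Wars at −0.27 against 0.17, Gsto1 at −0.11 against 0.14 and Pgam1 at −0.02 against 0.19. In RNA, protein and DNA synthesis and turnover, Utp20 was at 0.39 against −0.19, Nob1 at 0.35 against −0.65, Eif3c at 0.42 against −0.11, Cdc45 at 0.34 against −0.18, Ctsz at 0.30 against −0.28 and Psmb4 at −0.49 against 0.78. Of the rest, Tef was at 0.32 against −0.30, and the erythroid genes Car2 and Fech at 0.83 and 0.25 against −0.30 and −0.20.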

How the results depend on the processing

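No limma setting passed a probe set. With the replicate block 0 of 45037 passed (1775 at an unadjusted p under 0.05, smallest adjusted p 0.891), and the block changed no other call; the smallest adjusted p over the settings was 0.134, with a trend over mean level. With a replicate left out the count stayed at 0, with 1333 to 2373 unadjusted. Counts with a shared direction (2641 higher, 2786 lower) came to 1527 and 1624 at a mean of 8 or more, 1430 and 1585 with the pairs crossed, and 1125 and 1307 without overlap. The balance turned with arrays centred on their medians (3057 higher, 2491 lower), by the mean of the 4 arrays (2753 and 2717) and by brightest probe set (1977 and 1590); quantile normalization gave 2651 and 2971. At 0.5 or more (183 and 211) they were 351 and 365 at a mean of 6 or more, 54 and 87 at 8 or more, 93 and 93 with pairs crossed, 63 and 65 for a gap of 0.5 between groups, and 80 lower by brightest probe set. Centring arrays on their medians gave 211 and 170, and quantile normalization 158 and 203. At 1 or more (5 and 14) they were 17 and 27 at a mean of 6 or more, 1 and 4 at 8 or more, 10 and 9 by the mean of the 4 arrays, and 2 and 6 for a gap of 1. The lower ones were 8 with pairs crossed and 7 by brightest probe set. The rule needs both pairs, so these counts have no value with a replicate left out.

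Of 711 values of the 79 named genes at 0.5 or more in both pairs under the alternatives, 690 kept their direction. The genes were chosen for that direction on these same arrays, so this count was largely fixed in advance and only describes them. With the Gapdh difference as a term, the lower genes Ccni (0.14), Srsf5 (0.12), Hsp90aa1 (0.30), Hk1 (0.39), Ncl (0.024), Eif4a1 (0.15), Rpa2 (0.21), Mcm3 (0.11), Psap (0.91), Snrpb (0.015), Tpm3 (0.62), Pfn1 (0.11), Cdc42 (0.031) and Cfl1 (0.17) turned positive. With a replicate left out, Ier5 ranged from −0.24 (without TMX replicate 2; −0.04 without 4 h replicate 1) to 1.72, and Tnfaip3 from −0.15 (without TMX replicate 2; −0.12 without 4 h replicate 1) to 1.64. The named gene Psap ranged from −2.19 to 0.90 (without TMX replicate 1; also 0.90 without 4 h replicate 2), and Tpm3 from −1.86 to 0.063 (without TMX replicate 1). This fit does not pair the arrays, so a value with an array left out also includes the offset between replicates. Psap, for example, gave −0.65 and −0.64 in its 2 pairs. The cause of the sign changes with the Gapdh term was not tested. Of 328 list medians, 187 moved by less than the spread between replicates. The Gapdh term, the brightest probe set and the 0.5 size were chosen after seeing the data. With 2 arrays a group and no replicate block in the fit, the interval of a typical difference reaches 1.14 to either side.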
